A study of Rattus norvegicus with 9 samples.

Results

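Astrocytes clear glutamate and potassium from the space around synapses and move water across the blood-brain border, and 10 genes of that work were followed here across sham-operated and ischemic rat brain. They are the glutamate transporters Slc1a2 and Slc1a3, the glutamine synthetase Glul, the sodium bicarbonate cotransporter Slc4a4, the potassium channel Kcnj10, the water channel Aqp4, the gap junction proteins Gja1 and Gjb6, and the metabolic enzymes Aldh1l1 and Aldoc, which are widely used as astrocyte markers. The genes were chosen by name, and every array probe whose transcript accession belongs to one of them was taken, which gave 16 probes of the 30367 non-control probes on the array. All 10 genes had at least 1 probe that could be tested. For each gene the probe with the highest mean signal stands for the gene, so that these are 10 of the 22783 features (1 probe per gene or unnamed transcript) that entered the test.

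Brain RNA of male rats of the Sprague Dawley strain was hybridised to 9 arrays, 3 in every group, and the labels give 3 animals a group. The first group was sham-operated. The second had middle cerebral artery occlusion (MCAO), an experimental stroke made by blocking the main artery of the lateral forebrain and then letting blood back in, and received saline vehicle. The third had the same occlusion and received salidroside, a phenylethanoid glycoside of Rhodiola plants, at 50 mg per kg. Both agents were injected into the abdominal cavity once a day for 6 days, starting 1 h after reperfusion. The labels say that ischemic brain was dissected, without naming the region or the side, and they give no injection for the sham group and no age. The comparisons ask what occlusion did to these genes and whether salidroside altered that.

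In healthy brain, Slc1a2 (GLT-1) and Slc1a3 (GLAST) take glutamate up together with sodium, and Glul turns it into glutamine, which neurons take back and convert to glutamate again. Kcnj10 (Kir4.1) lets potassium into the astrocyte, Aqp4 sits in the endfeet around vessels, and Gja1 (connexin 43) and Gjb6 (connexin 30) join astrocytes into a network through which these ions and metabolites spread. After stroke, astrocytes near the lesion become reactive and increase structural and inflammatory genes, and the state of these uptake and coupling genes bears on excitotoxicity and swelling.

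The promoters of both connexins are shown because these genes gave the 2 largest differences between salidroside and vehicle among the 10. The 250 bases upstream of their start sites in the RefSeq annotation of GRCr8 are printed below 5′ to 3′ on the strand of the gene, Gja1 from chr20:36302314-36302563 on the plus strand and, for Gjb6, the most upstream of its starts from chr15:35410139-35410388 on the minus strand. Capitals mark matches to the searched motifs.
Gja1: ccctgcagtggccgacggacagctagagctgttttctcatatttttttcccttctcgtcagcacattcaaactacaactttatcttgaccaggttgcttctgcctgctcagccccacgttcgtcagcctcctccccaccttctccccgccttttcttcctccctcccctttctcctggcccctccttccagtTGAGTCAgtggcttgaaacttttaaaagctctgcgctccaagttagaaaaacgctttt
Gjb6: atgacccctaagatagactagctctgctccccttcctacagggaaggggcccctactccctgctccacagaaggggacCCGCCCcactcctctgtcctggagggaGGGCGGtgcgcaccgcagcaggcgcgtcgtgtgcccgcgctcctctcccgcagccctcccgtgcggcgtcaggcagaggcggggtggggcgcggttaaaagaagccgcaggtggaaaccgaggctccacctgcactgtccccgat
The 2 sequences differ in composition: 51.2% G and C with 8 CpG pairs for Gja1, and 68% with 19 CpG pairs for Gjb6, where the median over 33469 promoters is 51.2%. Both strands of each window were searched for 6 motifs, and the matches found in these 2 windows do not overlap each other. AP-1, the site of Fos and Jun proteins, was written as TGANTCA. The GC box, bound by Sp factors, was written as GGGCGG. The TATA box was TATAAA, and the nuclear factor 1 motif was TTGGCA. The STAT motif was written as TTCNNNGAA, and the E-box of basic helix-loop-helix factors was CAGCTG. Gja1 holds 1 AP-1 match that begins 58 bases before the start, and such a match lies in 6.34% of all promoters of this length. Gjb6 holds 2 GC box matches that begin 172 and 145 bases before the start, and 30.5% of promoters hold one. The TATA box, nuclear factor 1, STAT and E-box letters occur in neither window, and 12.9%, 12.02%, 7.67% and 11.97% of promoters hold them. A match describes the letters only, and no binding was measured.

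All values below are log2 of the background-corrected fluorescence minus the 75th percentile of the same array, so a value of 1 lies 2 times above that percentile. They compare 1 probe between arrays and never 2 genes with each other. A gene passed the test at a Benjamini-Hochberg adjusted p under 0.05 over all features, in a limma model of all 9 arrays. P-values measure the spread between 3 rats per group, pooled over the 3 groups and moderated over all features. Arrays of a group also differed in slide, scan day or tissue content, and this spread holds those differences too. In whole tissue, fewer cells of a type and less RNA per cell cannot be told apart.

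Some arrays stood apart before any of the 10 genes was considered. Vehicle replicate 2 carried cerebellar transcripts: Pcp2, a Purkinje cell gene, read 2.97 there and from -3.88 to -2.20 on the other 8 arrays, and Cbln1, a granule cell gene, read 2.84 there and from -2.84 to -0.71 elsewhere. Slc1a6 and Gdf10 of the cerebellar list were also highest on that array, at -2.90 and -0.82. The other measured genes of that list, Cbln3 (-2.62) and Calb1 (-1.81), were not. Sham replicate 1 carried striatal transcripts, with a list median 1.65 above the sham mean against -1.01 to -0.54 on the other 8 arrays. The choroid plexus gene Ttr read 4.28, 6.43 and 6.42 on vehicle replicates 1 and 3 and salidroside replicate 3, and -3.46 to -1.31 on the other 6. The median of 6 measured choroid plexus genes relative to sham was 0.82, 2.48 and 1.58 on those 3 arrays. It was 0.74 on salidroside replicate 2 and -0.19 to 0.11 on the rest. Not all genes of that list followed Ttr. Clic6 was lowest on salidroside replicate 3 (-6.16). Otx2 read -5.76 on vehicle replicate 1, and -0.88 and -0.84 on vehicle replicate 2 and salidroside replicate 2. Sham replicate 3, scanned on another day, had 65.6% of probes well above background against 82.0% to 88.5% on the others. No slide held both sham and MCAO arrays, so that slide and occlusion cannot be told apart in either comparison with sham. Both MCAO groups shared 2 slides. The part of these differences in the results was not tested, and values without the array concerned are given beside the results that rest on it.

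With vehicle, 1 of the 10 genes passed as higher than sham, Gjb6, and none passed as lower. Over all features, 2.8% passed this test (637 of 22783), 1.11% higher (254) and 1.68% lower (383). At an unadjusted p under 0.05, 1 of the 10 differed, against 23.9% of all features. The share of higher calls depended on the scaling, with 589 of 1138 calls higher after quantile normalization, 492 of 896 with the percentile taken over probe averages and 581 of 1197 in the authors' deposited table. Of the 10 genes, 8 had a higher mean than sham, against 57.9% of all features, and the 8 include Kcnj10, which was near background. The median log2 change of the 10 was 0.23, against 0.09 over all features. For 4 genes the 3 vehicle arrays did not overlap the 3 sham arrays, which was the case for 28.7% of all features.

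None of the 10 genes passed between salidroside and vehicle, where 0.0132% of all features passed (3 of 22783). At an unadjusted p under 0.05, 1 of the 10 differed, Gjb6, against 5.94% of all features (1353). The median change of the 10 was -0.11, against 0.06 over all features. Of the 10, 7 had a lower mean with salidroside than with vehicle, while 58.6% of all features had a higher one. For Gjb6 alone the arrays of both groups did not overlap, against 11.9% of all features.

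Between salidroside and sham, again 0 of the 10 passed in limma, against 1.24% of all features (283). Of those 283 calls, 63 were higher, but 367 of 716 were higher after quantile normalization, 373 of 668 with each array's median as its scale, 175 of 420 with the percentile over probe averages and 231 of 586 in the authors' deposited table. At an unadjusted p under 0.05, Glul (lower) and Kcnj10 came out, against 14.8% of all features (3361), but the Kcnj10 probe was not well above background on 1 array of either group and its direction cannot be given. The median change was 0.14, against 0.12 over all features, and for 4 genes the arrays of both groups did not overlap, against 20.2% of all features. In the test over all 3 groups at once 1.46% of features passed and none of the 10, with the smallest adjusted p at Gjb6 (0.0972).

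**Figure D1:**
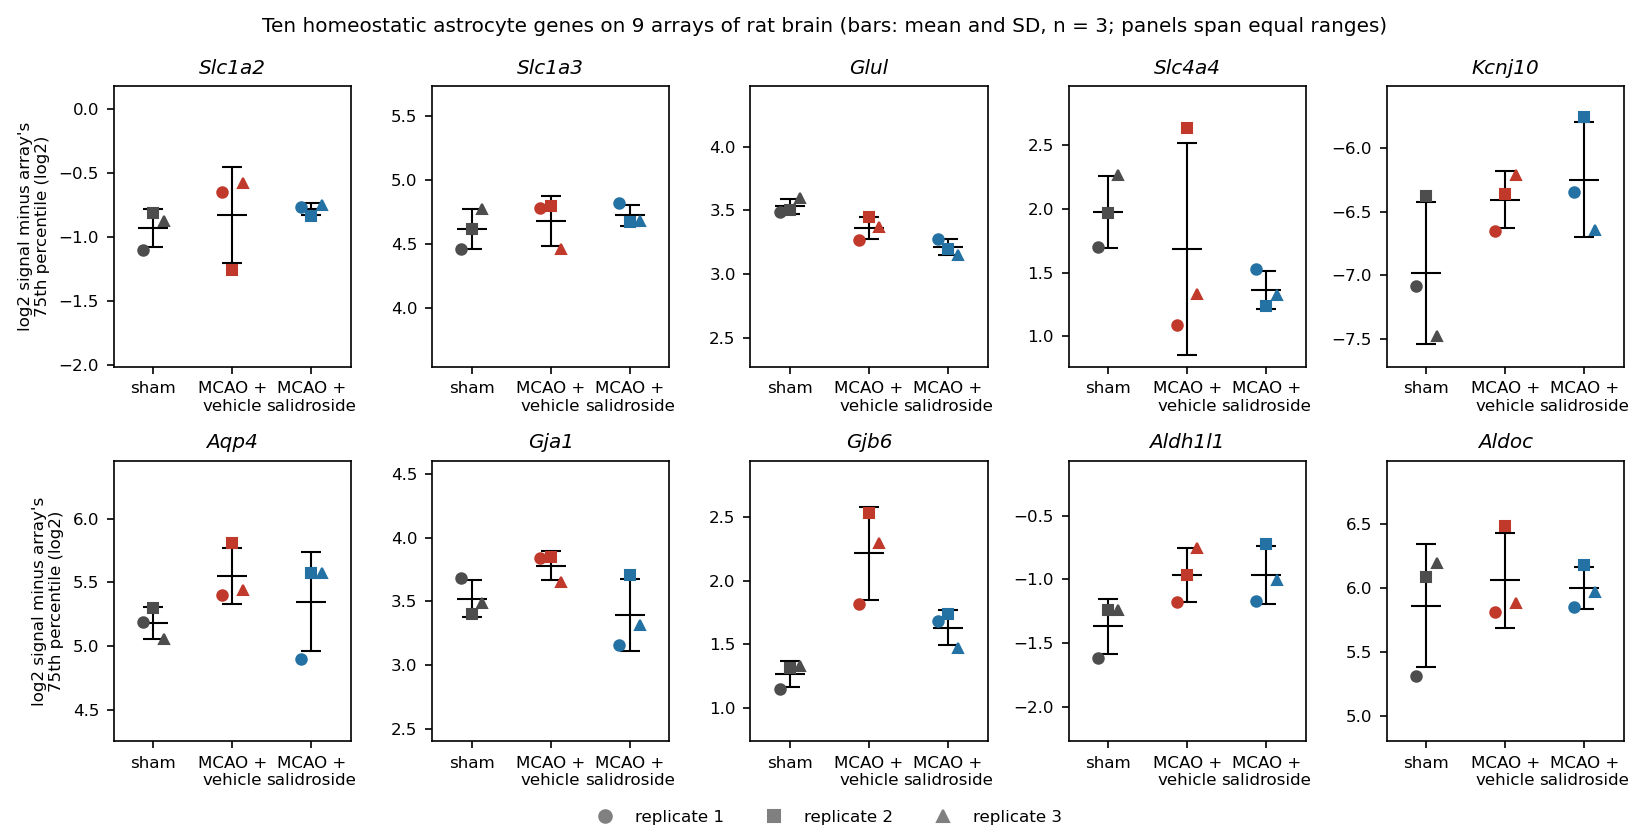
Each panel plots 1 gene on the 9 arrays as log2 signal minus the 75th percentile of the array, with points for arrays, shapes for replicate numbers and bars for mean and SD of 3 arrays. Gjb6 is the gene whose vehicle arrays (1.82 to 2.53) lie above all sham (1.15 to 1.33) and all salidroside arrays (1.48 to 1.74), and vehicle replicate 2 lies far above its group for Slc4a4 and below it for Slc1a2.

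Neither glutamate transporter passed in any comparison, and the intervals held changes in either direction. Slc1a2, the transporter of most forebrain glutamate uptake, read -1.10, -0.82 and -0.88 on the sham arrays. With vehicle it read -0.65, -1.26 and -0.57, and with salidroside -0.77, -0.84 and -0.75. The vehicle group was split, with replicate 2 below every other array and the other 2 above all the rest. The log2 change with vehicle was 0.10 with a 95% confidence interval of -0.35 to 0.56 (limma adjusted p = 0.790), and without vehicle replicate 2 it was 0.32 (adjusted p = 0.243). The change from vehicle to salidroside was 0.04, with an interval of -0.41 to 0.50, and -0.17 without that array.

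A second Slc1a2 probe, designed on another transcript accession, gave -1.84, -1.57 and -1.66 in sham, -1.72, -2.05 and -1.71 with vehicle, and -1.63, -1.79 and -1.59 with salidroside. Its change with vehicle was -0.14 where that of the first probe was 0.10, and neither passed. Within each array the gap between both probes was wider in all 3 vehicle and all 3 salidroside arrays than in any sham array. The gap widened by 0.246 with vehicle and by 0.131 with salidroside (log2, means of 3 arrays), each with an exact two-sided permutation p of 0.1, the smallest that 3 against 3 allows, and an adjusted p of 0.263 over 21 such tests. These probe tests were chosen after the values were seen.

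Slc1a3, which carries most uptake in cerebellum and is also strong in forebrain astrocytes, read 4.46, 4.62 and 4.77 in sham, 4.78, 4.80 and 4.46 with vehicle, and 4.82, 4.67 and 4.68 with salidroside. The 3 groups overlapped fully. Its intervals were among the narrowest of the 10 genes, -0.29 to 0.42 for vehicle against sham and -0.31 to 0.40 for salidroside against vehicle, and the estimates of 0.06 and 0.04 turned sign under other scalings or array weights. A second probe changed by 0.14 and -0.11 in these comparisons.

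Glul had the lowest values with salidroside. It read 3.49, 3.51 and 3.60 in sham, 3.27, 3.45 and 3.37 with vehicle, and 3.28, 3.20 and 3.15 with salidroside. Every MCAO array lay below every sham array. Against sham the log2 change was -0.17 (SE 0.126, adjusted p = 0.460) with vehicle and -0.32 (SE 0.126, interval -0.61 to -0.03, unadjusted p = 0.0333, limma adjusted p = 0.276) with salidroside. Salidroside against vehicle gave -0.15 (interval -0.44 to 0.14). Weighting the arrays by their fit made the comparison of salidroside with sham pass (adjusted p = 0.0473), the 1 setting of 21 in which it did.

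Of 11 other genes of the glutamate and glutamine cycle, all 11 were measured and none passed in any comparison. Their median change was 0.00 with vehicle, 0.23 from vehicle to salidroside and 0.06 from sham to salidroside. The glutamine transporter Slc38a5 was higher on all 3 salidroside arrays (-1.61 to -1.41) than on any vehicle (-2.10 to -1.67) or sham array (-1.95 to -1.81), by 0.46 over vehicle (adjusted p = 0.735) and 0.42 over sham (adjusted p = 0.251, and 0.0466 with array weights).

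Slc4a4, which moves bicarbonate with sodium and buffers acid, varied more between vehicle arrays than any other of the 10 genes (SD 0.831). It read 1.70, 1.97 and 2.26 in sham, 1.09, 2.64 and 1.33 with vehicle, and 1.53, 1.24 and 1.33 with salidroside. Vehicle replicate 2 was the highest of all 9 arrays and the other 2 vehicle arrays lay below all sham arrays, as did all 3 salidroside arrays. The change with vehicle was -0.29 (SE 0.371, adjusted p = 0.675). Without vehicle replicate 2, the array with cerebellar transcripts, it was -0.77 (adjusted p = 0.0944), and the change from vehicle to salidroside turned from -0.32 to 0.15. Salidroside against sham gave -0.61 (interval -1.46 to 0.23, adjusted p = 0.513). The second Slc4a4 probe followed the first over the 9 arrays (r = 0.85) and gave -0.33, -0.53 and -0.86 in the 3 comparisons, none past the test.

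Among 12 other genes of acid-base, glucose and lactate handling, none of the 12 passed, and their medians were 0.03, -0.04 and 0.10. The one with the smallest p in both comparisons with sham was Slc2a1, the GLUT1 glucose transporter of brain endothelium and astrocytes. It read 0.47, 0.89 and 0.86 in sham, 1.26, 1.55 and 1.79 with vehicle and 1.39, 1.33 and 1.39 with salidroside. All 6 MCAO arrays lay above all sham arrays. The change was 0.80 with vehicle (SE 0.183, adjusted p = 0.0590) and 0.63 with salidroside (adjusted p = 0.139). With vehicle Slc2a1 passed in 5 of 21 other settings, at adjusted p from 0.0216 in the authors' deposited table to 0.0477 with the percentile over probe averages, and with salidroside in 1, array weights (0.0424). The anion exchanger Slc4a3 had the smallest p for salidroside against vehicle (0.35, adjusted p = 0.784).

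Kcnj10 was close to the limit of detection. Its 1 probe was well above background on 7 of 9 arrays, failing on sham replicate 3 and salidroside replicate 3, and it entered the test through the vehicle arrays alone. It read -7.08, -6.38 and -7.48 in sham, -6.65, -6.36 and -6.21 with vehicle, and -6.35, -5.76 and -6.64 with salidroside. The groups overlapped. The change was 0.57 with vehicle (interval -0.16 to 1.30, adjusted p = 0.316) and 0.73 with salidroside against sham (interval 0.00 to 1.46, unadjusted p = 0.0489, adjusted p = 0.334). Under another background correction the first of these was -0.24, and the direction cannot be given.

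Of 7 other potassium and sodium genes, all 7 were measured and none passed, with medians of 0.35, -0.20 and 0.16. Atp1b2, the glial subunit of the sodium pump, read 4.09, 4.29 and 4.47 in sham, 4.67, 5.44 and 5.14 with vehicle and 4.62, 5.04 and 4.88 with salidroside, so that every MCAO array lay above every sham array. Its change was 0.80 with vehicle (SE 0.222, adjusted p = 0.0879), 0.62 without vehicle replicate 2, and 0.56 for salidroside against sham (adjusted p = 0.275). With vehicle Atp1b2 passed in 3 of 21 other settings, quantile normalization (adjusted p = 0.0362), the authors' deposited table (0.0268) and array weights (0.0440). The potassium channel Kcnk2 had the smallest p for salidroside against vehicle (0.42, adjusted p = 0.877).

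Aqp4, the water channel through which the brain swells and drains, gave different answers from its 3 probes. The brightest read 5.19, 5.30 and 5.05 in sham, 5.40, 5.81 and 5.44 with vehicle, and 4.90, 5.57 and 5.57 with salidroside. All vehicle arrays lay above all sham arrays, and the salidroside arrays spanned both, with replicate 1 the lowest of all 9. The change with vehicle was 0.37 (SE 0.217, interval -0.13 to 0.86, adjusted p = 0.343) and 0.24 without vehicle replicate 2. From vehicle to salidroside it was -0.20 (interval -0.70 to 0.29, adjusted p = 0.981), and 0.02 without salidroside replicate 1.

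The second Aqp4 probe read -4.85, -4.92 and -4.82 in sham, -4.10, -3.82 and -3.80 with vehicle, and -5.05, -4.28 and -4.41 with salidroside. Here the vehicle arrays lay above all 6 others, with a change of 0.96 over sham (SE 0.213, adjusted p = 0.0567 over all 25576 tested probes) and of -0.68 from vehicle to salidroside (unadjusted p = 0.0122, adjusted p = 0.684). The third probe read -0.69, 0.27 and 0.13 in sham, -1.15, -0.09 and -0.58 with vehicle, and -0.69, -0.00 and -0.37 with salidroside, with a change of -0.51 with vehicle (adjusted p = 0.410). All 3 probes are annotated to the same transcript accession. Over the 9 arrays the first and the second correlated with r = 0.81, the first and the third with 0.15 and the second and the third with -0.19, which are descriptions over arrays that share their RNA. Within arrays, the second probe gained 1.47 on the third from sham to vehicle (exact two-sided permutation p = 0.1, the smallest possible, and 0.263 after adjustment over the 21 probe tests, none of which could pass).

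**Figure D2:**
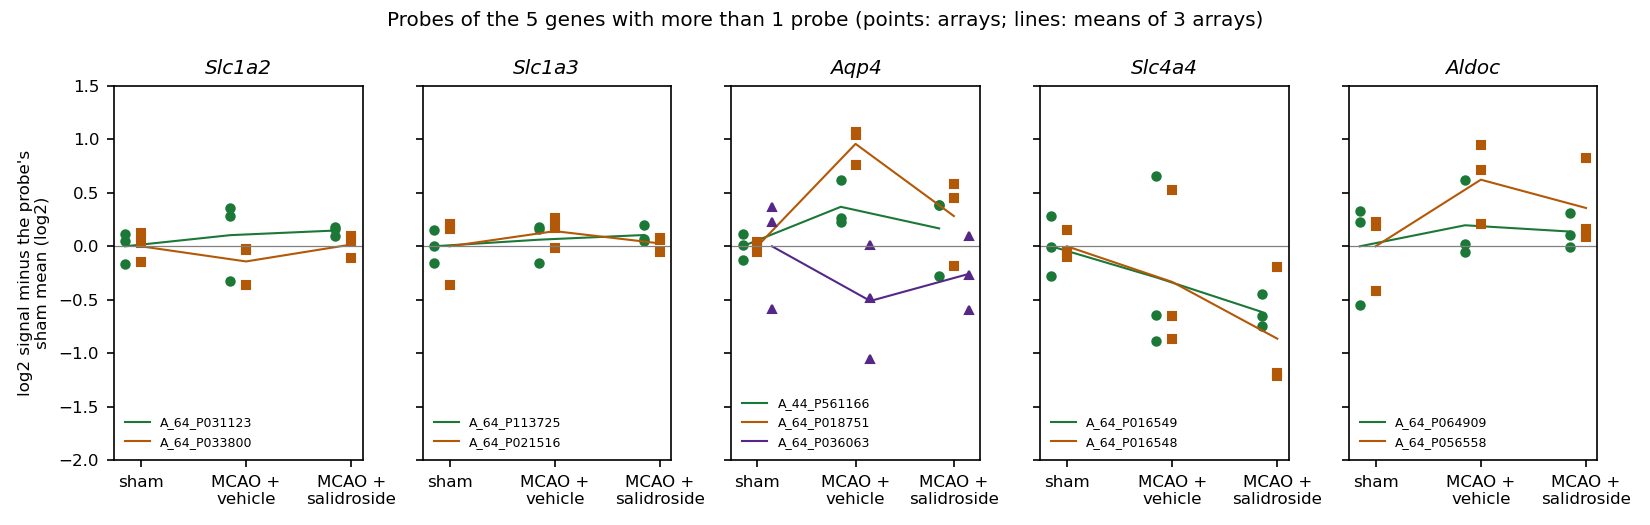
Each panel plots the probes of 1 gene on the 9 arrays as log2 signal minus the mean of that probe in sham, with points for arrays and lines through the means of 3 arrays. Probes of Slc4a4 run together, while those of Aqp4 part with vehicle, from 0.96 for one to -0.51 for another.

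Of 9 further genes of water channels and endfeet, 6 were measured (Dtna, Dag1 and Hepacam were not) and none passed. Their median change was 0.61 with vehicle, -0.08 from vehicle to salidroside and 0.43 from sham to salidroside. Mlc1, an astrocyte endfoot protein that takes part in volume regulation, read -0.95, -1.19 and -1.13 in sham, -0.20, -0.44 and -0.28 with vehicle, and -1.39, -0.69 and -0.50 with salidroside. The 3 vehicle arrays were the 3 highest, and salidroside replicate 1 was the lowest of all, as it was for the brightest Aqp4 probe. The change was 0.78 with vehicle (SE 0.230, adjusted p = 0.0983) and -0.55 from vehicle to salidroside (adjusted p = 0.815). Without salidroside replicate 1 the latter was -0.29 and the change with vehicle passed (adjusted p = 0.0373), as it did with array weights (0.0243). Dmd, the dystrophin gene, whose products anchor Aqp4 in the endfoot, had the smallest p for salidroside against sham (0.40, adjusted p = 0.279).

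Both connexins had higher means with vehicle than in sham or with salidroside, and only Gjb6 passed, with vehicle against sham. The genes were not tested against each other. Gja1 read 3.68, 3.40 and 3.48 in sham, 3.84, 3.84 and 3.65 with vehicle, and 3.16, 3.70 and 3.32 with salidroside, each the mean of up to 10 spots. Only salidroside replicate 2 and sham replicate 1 reached into the vehicle range. The change was 0.26 with vehicle (interval -0.15 to 0.66, adjusted p = 0.414) and -0.39 from vehicle to salidroside (interval -0.79 to 0.02, unadjusted p = 0.0583, limma adjusted p = 0.866). On the slide with 2 arrays of each group the latter was -0.24. On the slide with 1 of each, vehicle replicate 2 and salidroside replicate 1, it was -0.69. Without salidroside replicate 1 the change from vehicle to salidroside was -0.27.

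Gjb6 read 1.15, 1.32 and 1.33 in sham, 1.82, 2.53 and 2.29 with vehicle, and 1.68, 1.74 and 1.48 with salidroside, also from up to 10 spots per array. The groups stood in the order sham, salidroside, vehicle with no overlap between any of them. It rose with vehicle by 0.95 (SE 0.197, interval 0.50 to 1.40, limma adjusted p = 0.0465), a 1.93-fold difference with an interval of 1.41 to 2.64. From vehicle to salidroside the change was -0.58 (SE 0.197, interval -1.03 to -0.13, unadjusted p = 0.0169, adjusted p = 0.722), and from sham to salidroside 0.36 (interval -0.09 to 0.81, adjusted p = 0.456). The difference between salidroside and vehicle was -0.45 on the slide with 2 arrays of each group. On the slide with 1 of each, vehicle replicate 2 and salidroside replicate 1, it was -0.85. Without vehicle replicate 2 the change from vehicle to salidroside was -0.43.

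The call for Gjb6 was at the edge of the threshold: it held in 8 of 21 other settings, with a change of 0.78 to 1.15 in all of them. It was lost without vehicle replicate 2 (0.79, adjusted p = 0.0832), without vehicle replicate 3 (adjusted p = 0.170) and without sham replicate 1, 2 or 3 (adjusted p from 0.0805 to 0.156), and also without salidroside replicate 2 or 3 (0.0760 and 0.0692), which enter only through the shared spread.

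Of 6 other glial and vascular connexins, 5 were measured (Gjc3 was not) and none passed, with medians of 0.05, 0.20 and 0.30. Gja4, a connexin of vessel walls, had the smallest p in both comparisons with sham, at 0.61 with vehicle (adjusted p = 0.142) and 0.55 with salidroside (adjusted p = 0.275, and 0.0487 with array weights).

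**Figure D3:**
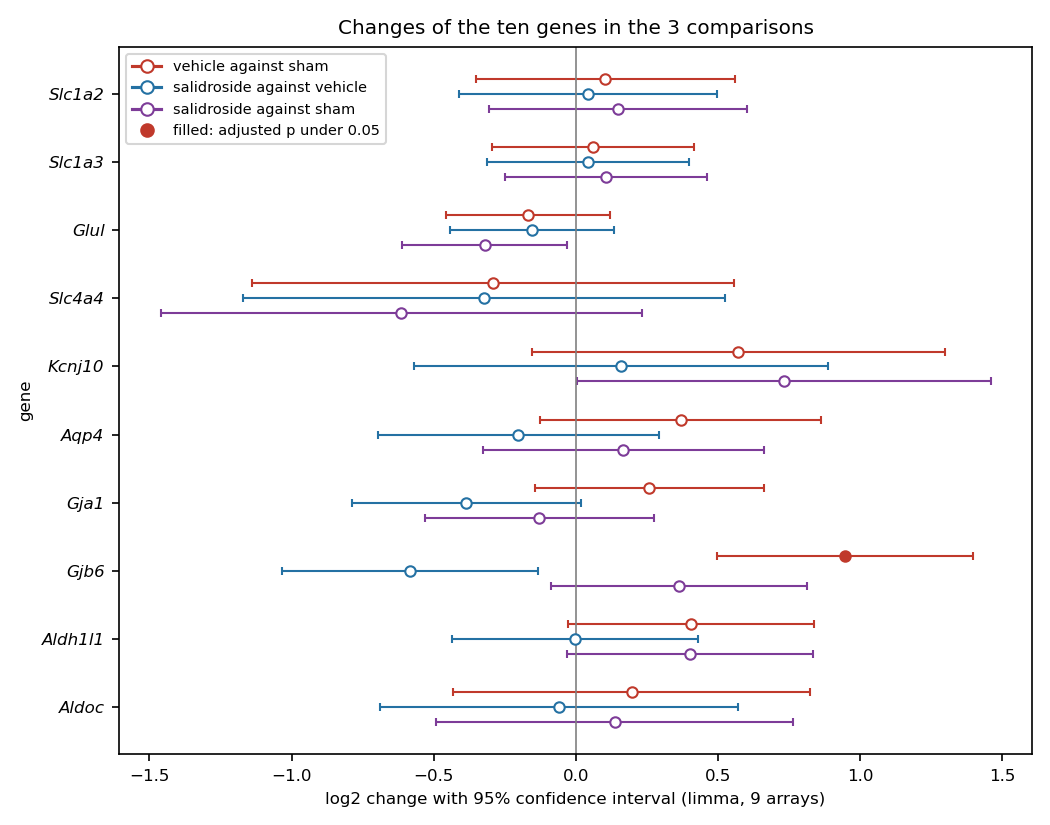
The log2 change of each gene is plotted with its 95% confidence interval for vehicle against sham, salidroside against vehicle and salidroside against sham, from the model of 9 arrays. The filled point is Gjb6 with vehicle (0.95), and every other interval belongs to a change that did not pass.

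Both metabolic markers had higher means after occlusion without passing. Aldh1l1, an enzyme of folate metabolism, read -1.62, -1.24 and -1.24 in sham, -1.17, -0.96 and -0.75 with vehicle, and -1.17, -0.72 and -1.004 with salidroside. All 6 MCAO arrays lay above all 3 sham arrays, and both MCAO groups had nearly the same mean. The change was 0.40 with vehicle (interval -0.03 to 0.84, adjusted p = 0.238) and 0.40 with salidroside (adjusted p = 0.383), and the difference between both MCAO groups was -0.00 with an interval of -0.44 to 0.43. Sham replicate 1, the array with striatal transcripts, was the lowest of all. Over 21 other settings, leaving out that array among them, the changes from sham ran from 0.24 to 0.51 with vehicle and from 0.27 to 0.53 with salidroside.

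Aldoc, the aldolase of astrocytes and of some Purkinje cells, read 5.31, 6.09 and 6.19 in sham, 5.81, 6.49 and 5.88 with vehicle, and 5.85, 6.18 and 5.97 with salidroside. The lowest array was sham replicate 1, which carried striatal transcripts, and the highest was vehicle replicate 2, which carried cerebellar ones. The change with vehicle was 0.20 (interval -0.43 to 0.82, adjusted p = 0.708), and it was -0.08 without the former and -0.02 without the latter. A second Aldoc probe gave 0.62 (SE 0.287, adjusted p = 0.234).

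Of 14 further astrocyte markers 13 were measured (Sox9 was not) and none passed, with medians of 0.29, -0.19 and 0.11. Slc6a11, the GAT-3 transporter for GABA, read -4.09, -3.35 and -3.33 in sham, -2.63, -2.96 and -2.60 with vehicle and -2.90, -2.35 and -2.37 with salidroside. All MCAO arrays lay above all sham arrays, by 0.86 with vehicle (SE 0.254, adjusted p = 0.0982) and 1.05 with salidroside (adjusted p = 0.103). Without sham replicate 1, the lowest array, these changes were 0.61 (limma adjusted p = 0.148) and 0.80 (limma adjusted p = 0.198). Slc6a11 passed in 3 of 21 other settings with vehicle (adjusted p from 0.0364 to 0.0488), and for salidroside against sham in 4 (0.0113 to 0.0440), 1 of them without salidroside replicate 1. Ntsr2, a neurotensin receptor of astrocytes, read 2.40, 2.78 and 2.80 in sham, 2.15, 2.44 and 2.25 with vehicle and 3.00, 3.10 and 2.89 with salidroside. The salidroside arrays were the 3 highest, 0.71 over vehicle (SE 0.163, unadjusted p = 0.00199, adjusted p = 0.415).

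Transcription factors of astrocytes held the 2 genes of the 7 pathway lists that passed. The lists name 67 genes, 62 were measured, and 1 rose and 1 fell with vehicle, which is 3.23% against 2.8% of all features. Id3, an inhibitor of basic helix-loop-helix factors downstream of BMP signals, read 0.15, -0.11 and -0.12 in sham, -1.63, -2.02 and -1.55 with vehicle, and -1.91, -1.92 and -1.77 with salidroside. All 6 MCAO arrays lay far below all sham arrays. It fell by 1.71 on the log2 scale with vehicle (SE 0.168, limma adjusted p = 0.00274) and by 1.85 with salidroside (adjusted p = 0.00201), where it was the 1 gene of the 62 that passed (1.61%, against 1.24% of all features). Both calls were lost after normexp background correction (adjusted p = 0.137 and 0.322) and held in the other 20 settings. Salidroside and vehicle differed by -0.13 (interval -0.52 to 0.25).

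Nfe2l2 (NRF2), the factor that switches on antioxidant genes, read -0.84, -1.13 and -1.38 in sham, -0.05, -0.22 and 0.32 with vehicle, and -0.68, -0.61 and -0.37 with salidroside. The groups stood in the same order as for Gjb6, without overlap. It rose by 1.13 with vehicle (SE 0.204, adjusted p = 0.0325), a call lost in 9 of 21 settings, among them leaving out vehicle replicate 1 (adjusted p = 0.0718) or 3 (0.121), sham replicate 2 (0.0804) or 3 (0.136), or salidroside replicate 2 (0.0593). From vehicle to salidroside the change was -0.57 (unadjusted p = 0.0224, adjusted p = 0.763).

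The 10 genes did not move as 1 block. Over the 9 arrays 28 of their 45 pairs correlated positively, with a median r of 0.09. Slc4a4 and Glul ran together (r = 0.75), as did Aldh1l1 with Kcnj10 (0.73) and with Gjb6 (0.69) and Gjb6 with Aqp4 (0.60). The Kcnj10 probe was well above background on only 7 of the 9 arrays. Slc4a4 ran against Slc1a2 (r = -0.76), a relation in which vehicle replicate 2 holds the highest value of one and the lowest of the other. The median of the 10 genes relative to sham was -0.14, 0.08 and 0.07 on the sham arrays, 0.21, 0.51 and 0.20 with vehicle, and 0.08, 0.25 and 0.15 with salidroside, highest on vehicle replicate 2.

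Among 13236 named features, the pattern of the mean of the 10 genes over the 9 arrays was close to that of Fitm2 (r = 0.97), Hipk2 (0.97), Bcdin3d (0.96) and Aifm3 (0.96), and most opposite to Tmem254 (-0.96), Prss12 (-0.95), Prickle1 (-0.95), Lrrc57 (-0.94) and Hapln1 (-0.94). These are descriptions over arrays that share scaling and tissue content, and that mean ranged from -0.26 on sham replicate 1 to 0.31 on vehicle replicate 2.

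Markers of other cell types and states were read on the same arrays, and counts of calls with vehicle stand against 1.11% of all features higher and 1.68% lower. Of 9 measured markers of reactive astrocytes, 4 rose with vehicle (Steap4 2.20, Timp1 2.19, Cd44 1.64 and Cp 2.27), the median change being 1.65. Their median relative to sham was -0.17 to 0.14 on the sham arrays, 1.20 to 2.25 with vehicle and 0.24 to 1.08 with salidroside, and none of the 9 passed between salidroside and vehicle (median -1.18). The ependymal list ran from -0.25 to 0.23 in sham, 1.66 to 2.73 with vehicle and 0.05 to 1.57 with salidroside, with 1 of 4 measured genes past the test with vehicle (Dynlrb2). For macrophages the ranges were -0.18 to 0.14, 0.64 to 1.60 and 0.30 to 1.16, and 2 of 6 rose with vehicle (Cd163 2.78 and Cd14 1.81). For microglia they were -0.07 to 0.04, 0.26 to 1.28 and 0.08 to 1.06, with 0 of 8 past the test. With vehicle 7 of these 8 genes had higher means than sham, and Cx3cr1 had a lower one (-1.28). Cerebellar markers were at 1.80 on vehicle replicate 2 and from -0.29 to 0.57 on the other 8 arrays (0 of 6 passed), and thalamic markers at 1.70, 1.69 and 1.43 on vehicle replicates 2 and 3 and salidroside replicate 2 and at -0.34 to 0.10 on the rest (0 of 4). Markers of cortical projection neurons were at -0.52 to 0.35 in sham, -1.14 to -0.43 with vehicle and -0.44 to 0.35 with salidroside, with 1 of 5 lower with vehicle (Lamp5). Pan-neuronal markers were at -0.12 to 0.07, -0.51 to -0.20 and -0.24 to 0.06, with 8 of 9 means below sham with vehicle and 1 lower call (Thy1). All 11 striatal markers had lower means than sham in both MCAO groups and none passed, sham replicate 1 being the array with striatal transcripts. Of 3 erythrocyte markers, 1 fell with vehicle (Hbb, -1.27). The part of any of these cell populations or regions in the values of the 10 genes was not tested.

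**Figure D4:**
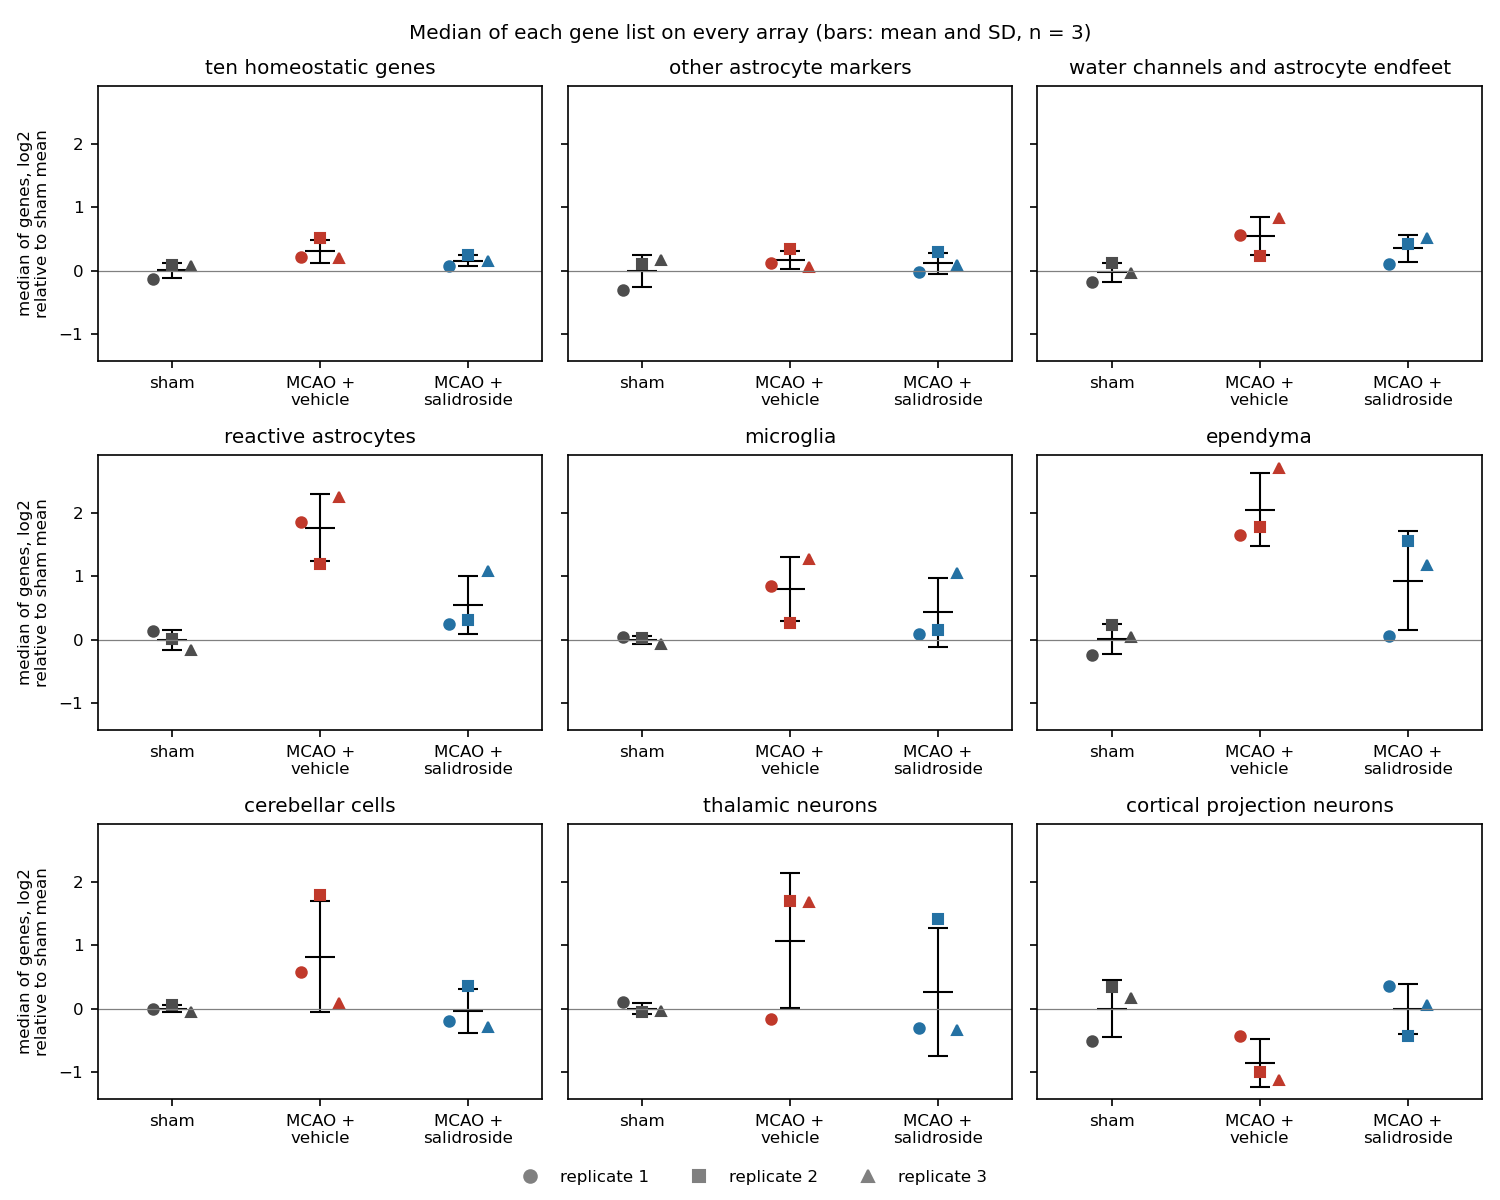
Each panel plots the median of 1 gene list on every array relative to the sham mean (log2), with points for arrays, shapes for replicate numbers and bars for mean and SD of 3 arrays. The 10 homeostatic genes span -0.14 to 0.51 while the reactive astrocyte list reaches 2.25 with vehicle. The cerebellar list is high on vehicle replicate 2, and the thalamic list on vehicle replicates 2 and 3 and salidroside replicate 2.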

How the data were processed

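Rat brain RNA was measured on 9 one-colour (Cy3) Agilent arrays. Per the file headers, the authors extracted the scans with Feature Extraction 11.0.1.1, and the deposited files give each spot's brightness as an intensity that was already corrected for background; the probe design used rn4. The authors' deposited value table holds log2 values of the same arrays and served as an alternative. Log2 of the processed signal minus each array's 75th percentile was used. Flagged spots were left out, spots of a probe averaged, and probes kept if well above background on all arrays of at least 1 group (25576). Transcript accessions named 18005 of 30367 probes through a GRCr8 table, used for names and promoters only. The probe with the highest mean per gene was kept (22783 features) and fitted in 1 model of 3 groups with limma 3.58.1 in R 4.3.3, tested on simulated data. Signals at the 75th percentile ran from 496 to 2340, and the number of arrays limits the precision. Slides were read from scan identifiers in the headers.

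All 10 genes were named, and of each pathway list up to 4 genes that passed, or else the one with the smallest p. Some genes this rule named are not reported here. The genes, lists and rules were chosen with earlier results of these data known. The planned normexp correction of the mean pixel signal was not run; the median pixel signal was used in its place. Replicate numbers did not pair the arrays: 2 of 9 same-numbered pairs had deviations correlated over 0.1. The deposited columns used are whole arrays, each 1 replicate.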

Additional observations from a re-analysis of the deposited data

How the results depend on the processing

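With only 3 arrays per group, and Kcnj10 near background, small changes could not be resolved. Beside the 637, 3 and 283 features that passed for vehicle against sham, salidroside against vehicle and salidroside against sham, the counts were 9, 0 and 0 after normexp correction (chosen after seeing the data), 1138, 7 and 716 after quantile normalization, 1197, 17 and 586 in the deposited table, 301, 0 and 179 without a filter on dim probes, 2757, 11 and 2352 with array weights, and 342, 0 and 114 from the 6 arrays compared. Median scaling gave 11 and 668 for both salidroside comparisons, a filter on all 9 arrays 5 for salidroside against vehicle, the slide as a fixed block 0 there, and the slide as a random block 300 for vehicle against sham. With the replicate number as a block (replicate block), the counts were 306, 0 and 134. Leaving out 1 array gave 117 to 1105, 0 to 8 and 90 to 1076.

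Of the 10 genes, 1 passed for vehicle against sham, Gjb6, and the number was 0 with normexp (adjusted p = 0.253), median scaling (0.104), no filter on dim probes (0.0716), the slide as a random block (0.0688), the replicate block (0.0694) and only the 6 arrays (0.0834), and 0 to 1 leaving out 1 array. For salidroside against sham 1 passed with array weights (Glul), and over the 3 groups 1 passed with quantile normalization, the deposited table and array weights. None passed between salidroside and vehicle in any setting run. In the deposited table and with a filter on all 9 arrays, only 9 of the 10 genes were measured, without Kcnj10.

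Some changes that did not pass the test turned sign. For vehicle against sham these were Slc1a2 (-0.059) and Slc1a3 (-0.10) with median scaling, Slc1a3 (-0.012) and Aldoc (-0.065) with array weights, and Kcnj10 (-0.24) with normexp. For salidroside against vehicle these were Slc1a3 with normexp (-0.11), quantile normalization (-0.040) and the deposited table (-0.039), Aldh1l1 with normexp (0.15), median scaling (0.033) and array weights (0.071), and with array weights Slc1a2 (-0.012) and Aldoc (0.042). For salidroside against sham these were Slc1a3 with median scaling (-0.021), and Aldoc (-0.023) and Gja1 (0.045) with array weights. Leaving out 1 array gave, for vehicle against sham, -0.022 to 0.32 (Slc1a2), -0.016 to 0.17 (Slc1a3), -0.080 to 0.36 (Aldoc) and -0.77 to 0.0067 (Slc4a4). For salidroside against vehicle it gave -0.17 to 0.17 (Slc1a2), -0.068 to 0.10 (Slc1a3), -0.13 to 0.10 (Aldh1l1), -0.18 to 0.15 (Aldoc), -0.31 to 0.021 (Aqp4), -0.087 to 0.36 (Kcnj10) and -0.62 to 0.15 (Slc4a4), and for salidroside against sham -0.14 to 0.30 (Aldoc). The median change of all features moved from 0.09 to -0.07 with median scaling and to -0.14 with normexp for vehicle against sham, and from 0.06 to 0.55 with normexp for salidroside against vehicle. The cause was not tested.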
